A study of Mus musculus with 201 samples.

Results

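The NR4A orphan nuclear receptors are 3 genes, *Nr4a1*, *Nr4a2* and *Nr4a3*, and were examined in single dentate granule cells (DGCs) of the mouse hippocampus. They were chosen by name, with earlier results of these data known. All 3 were present among the 42790, 42802 and 42774 gene symbols of the tables for whole cells, new environment (NE) nuclei and home cage (HC) nuclei. NR4A proteins bind DNA as nuclear receptors but have no known classical hormone ligand, so their activity follows mainly from how much of each is made. In neurons the genes belong to the immediate early genes (IEGs), which are transcribed within minutes of calcium or cAMP signals through factors such as CREB, and in the hippocampus they are known for a part in memory storage. *Nr4a1* encodes Nur77, *Nr4a2* encodes Nurr1, which midbrain dopamine neurons need for their development and upkeep, and *Nr4a3* encodes Nor1.

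The series holds 201 samples, each 1 cell or nucleus. Whole cells and NE nuclei were amplified with Smart-seq2, and HC nuclei with the standard chemistry of the C1 microfluidic system. The whole cells came from Prox1-GFP mice, which carry green fluorescent protein under the *Prox1* promoter, were dissociated with protease and sorted as GFP+. Their mice received PTZ, a GABA(A) receptor antagonist that causes seizures, at 50 mg per kg, or saline, and were killed 1 h later. The hippocampi of 2 mice were pooled per treatment, and the age of these mice is not given in the sources used here. The sample titles of each treatment carry a suffix of their own, and what it marks is not stated. The NE nuclei came from a C57BL/6 female aged 8 weeks that spent 15 min in an unfamiliar environment and 1 h back in its cage. After Dounce homogenization these nuclei were sorted as PROX1+ and either FOS+ or FOS-, and were amplified under 4 conditions that crossed 2 concentrations of template-switching oligo (TSO) with 2 dilutions of ERCC spike-in. The HC nuclei came from an undisturbed C57BL/6 mouse of the same sex and age and were positive for NEUN and PROX1. No agent, transgene or deletion was shared by all groups. Because the labels name no animal and each group came from 1 mouse or 1 pool, each group is 1 sample, no test between conditions was possible, and the intervals given here cover counting error only. Whatever the title suffix marks cannot be told apart from treatment in the whole cells.

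After limits on total count and number of genes, 40 of 48 FOS+ nuclei, 41 of 48 FOS- nuclei, 30 of 35 PTZ-treated cells, 38 of 47 saline-treated cells and all 23 HC nuclei were described. Median total expected counts were 269061 in FOS+ nuclei, 214421 in FOS- nuclei, 165926 in HC nuclei, 1090755 in PTZ-treated and 975934 in saline-treated cells. TPM values are relative transcript abundances, scaled for transcript length and to the same total in each cell, and a gene was counted as detected at a TPM above 1. The granule cell marker *Prox1* was detected in every whole cell, and *Calb1*, the calcium-binding protein of mature granule cells, in every NE nucleus. In the HC nuclei the most often detected granule cell marker was *C1ql3* (78.3%). These are the highest shares among 8 granule cell markers. The median share of the 8 markers was 78.3% in PTZ-treated and 89.5% in saline-treated cells. In nuclei this median was 60.0% for FOS+, 73.2% for FOS- and 54.3% for HC. *Prox1* was detected in 82.5% of FOS+ and 82.9% of FOS- nuclei. The least often detected marker in nuclei was *Tdo2*, down to 4.35% in HC nuclei. *Fos* RNA was detected in 12 of 40 nuclei sorted as FOS+ for the protein and in 3 of 41 FOS- nuclei, and *Arc*, which encodes a synaptic plasticity protein, in 31 and 1. The study set apart some FOS+ nuclei whose RNA resembled that of FOS- nuclei. The labels do not name them, so the FOS+ group here includes them. Levels from the 3 tables are set side by side but not compared, since they were normalized separately and the HC nuclei came from another platform.

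In the GENCODE annotation of GRCm38, *Nr4a1* lies on chromosome 15 from 101254269 to 101274795 on the + strand, *Nr4a2* on chromosome 2 from 57106830 to 57124003 on the - strand and *Nr4a3* on chromosome 4 from 48045153 to 48086447 on the + strand. All 3 are protein-coding and no other annotated gene overlaps any of them. The promoters are shown because all 3 genes had more RNA in FOS+ than in FOS- nuclei, and because TGACG, the core of the cAMP response element to which CREB family factors can bind, recurs in them. The sequences are RefSeq's for GRCm38.p6, run 5′ to 3′ on the strand of the gene and precede the RefSeq start site, at chr15:101266596-101266845 (+ strand) for *Nr4a1*, chr2:57124004-57124253 (- strand) for *Nr4a2* and chr4:48045055-48045152 (+ strand) for *Nr4a3*. The *Nr4a1* stretch lies inside the annotated span of the gene, in an intron of its longest annotated form, and that of *Nr4a2* borders the gene. The last 152 of the 250 bases before the *Nr4a3* start are left off, because a GENCODE transcript holds the base that follows in an exon. Capitals mark this core on either strand (TGACG, or CGTCA where it is on the other strand).
Nr4a1 promoter: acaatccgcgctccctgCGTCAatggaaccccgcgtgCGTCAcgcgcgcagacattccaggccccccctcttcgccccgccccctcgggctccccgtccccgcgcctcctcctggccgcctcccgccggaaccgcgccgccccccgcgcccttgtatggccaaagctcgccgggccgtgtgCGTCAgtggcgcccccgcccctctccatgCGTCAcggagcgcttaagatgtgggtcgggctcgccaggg
Nr4a2 promoter: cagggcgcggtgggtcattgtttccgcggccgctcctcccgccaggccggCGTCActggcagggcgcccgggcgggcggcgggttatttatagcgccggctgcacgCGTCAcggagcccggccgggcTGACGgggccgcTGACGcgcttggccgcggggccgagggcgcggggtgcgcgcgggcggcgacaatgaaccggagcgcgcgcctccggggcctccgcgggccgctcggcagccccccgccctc
Nr4a3 promoter: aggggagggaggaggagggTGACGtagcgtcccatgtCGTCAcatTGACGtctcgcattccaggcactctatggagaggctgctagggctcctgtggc

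Each promoter held 4 core elements within the 250 bases before its start. Counted from the start site, they began at -233, -213, -69 and -40 in *Nr4a1* and were all on the opposite strand. In *Nr4a2* they began at -200, -144, -123 and -111, with 2 on each strand. In *Nr4a3* they began at -231, -213, -205 and -147, with 3 on the strand of the gene, and the last is in the part left off. Of the 32851 promoters of this length, 17.8% held at least 1 core element and 45 (0.137%) held at least 4. The full palindrome TGACGTCA, which contains the core and is present in 1.55% of promoters, was in none of the 3 windows, nor was AAAGGTCA, the element that NR4A monomers bind (1.34% of promoters), or the CArG box of serum response factor (1.47%). TATAAA, found in 12.4% of promoters on either strand, was in that of *Nr4a2* alone, on the opposite strand at -164. These are matches of letters, and no binding was measured.

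All 3 NR4A genes were higher in the nuclei sorted as FOS+ than in the FOS- nuclei of the same mouse, a comparison that asks how granule cells activated by the new environment differ from their neighbours. *Nr4a2* was detected most often, in 31 of 40 FOS+ nuclei (77.5%, 95% exact binomial interval 61.5 to 89.2%) and in 9 of 41 FOS- nuclei (22%, 10.6 to 37.6%). *Nr4a3* was detected in 26 FOS+ nuclei (65.0%, 48.3 to 79.4%) and 4 FOS- nuclei (9.76%, 2.72 to 23.1%), and *Nr4a1* in 13 (32.5%, 18.6 to 49.1%) and 4 (9.76%, 2.72 to 23.1%). The intervals of the 2 groups did not overlap for *Nr4a2* and *Nr4a3*, and did for *Nr4a1*. How many of all genes have intervals that do not overlap was not counted, and the intervals do not stand in for a test.

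The levels differed more than the shares. The TPM of *Nr4a2* ran from 0 through a median of 45.7 to 2700 in FOS+ nuclei and from 0 through 0 to 8.31 in FOS- nuclei. Above the highest FOS- nucleus lay 29 of the 40 FOS+ nuclei, while 9 FOS+ nuclei were at 0, so that the groups overlapped at the low end. For *Nr4a3* the lowest, median and highest TPM were 0, 6.43 and 1282 in FOS+ nuclei and 0, 0 and 29.2 in FOS- nuclei. A total of 19 FOS+ nuclei exceeded every FOS- nucleus, and 13 were at 0. *Nr4a1* was at 0 in 27 FOS+ nuclei, had a median of 0 and reached 1470, against a highest FOS- value of 4.02. Its 13 detecting FOS+ nuclei had 12.4 to 1470 TPM (median 463), and all of them exceeded every FOS- nucleus. Of the 40 FOS+ nuclei, 32 were above the whole FOS- range in at least 1 NR4A gene and 12 in all 3. How often other genes exceed the FOS- range was not counted.

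**Figure D1:**
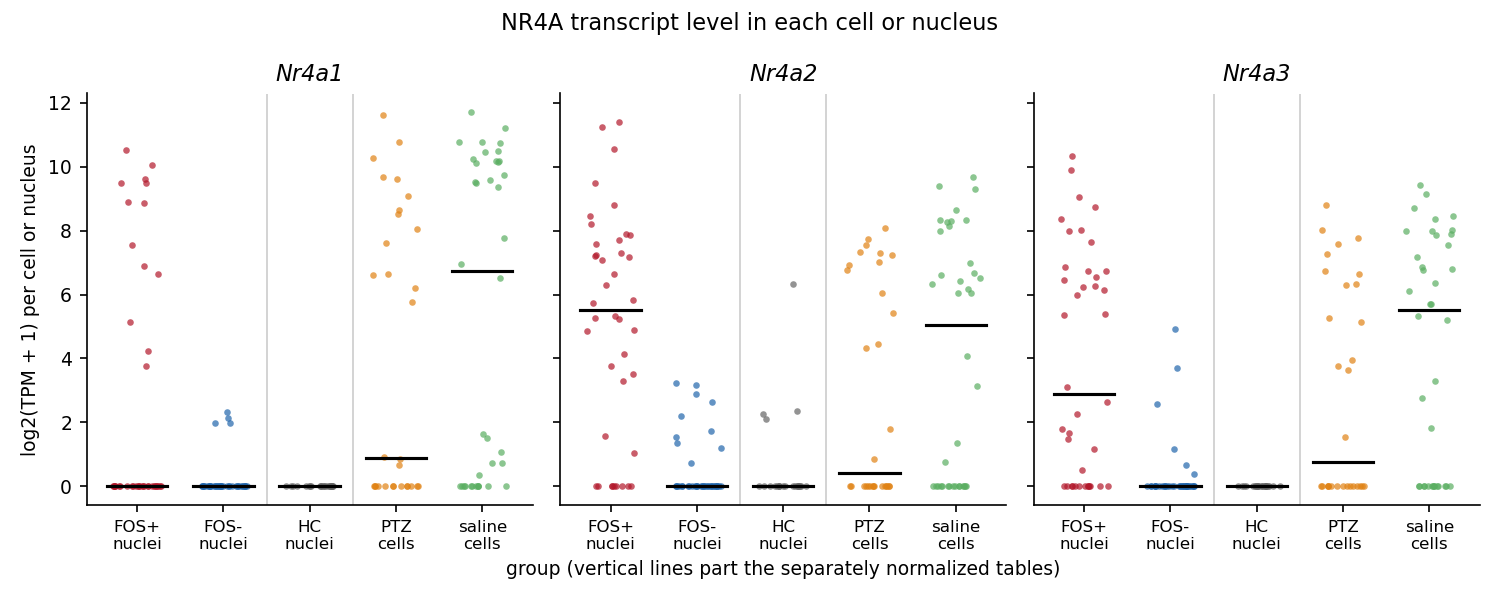
Each point is 1 cell or nucleus, placed by its log2(TPM + 1) of *Nr4a1*, *Nr4a2* or *Nr4a3*, and the horizontal bars are group medians. FOS+ nuclei reach 1470, 2700 and 1282 TPM where FOS- nuclei stay at or below 4.02, 8.31 and 29.2, while PTZ-treated and saline-treated cells both spread from 0 to high levels.

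Reads summed over the nuclei gave the same direction. *Nr4a1* had 3547 reads in FOS+ nuclei (245 CPM, the count scaled to the total of the group) and 4 in FOS- nuclei (0.286 CPM), each of these in a different nucleus, a ratio of 856 (exact counting interval 334 to 3145). *Nr4a2* had 9145 against 19 reads (633 and 1.36 CPM), a ratio of 465 (297 to 772). *Nr4a3* had 4922 against 22 reads (340 and 1.58 CPM), a ratio of 216 (143 to 345). Single nuclei carried much of these sums, since 1 FOS+ nucleus held 19.6% of the *Nr4a1* reads, 1 held 29.1% of the *Nr4a2* reads and 1 held 33.1% of the *Nr4a3* reads. Without the nucleus with the most reads in each group the ratios were 949, 497 and 316. Ratios of the mean TPM per nucleus were lower, at 475, 275 and 109.

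All 3 genes passed a difference of 20 percentage points in favour of FOS+ nuclei, as did 4.30% of the 16411 genes with a read in at least 5 of these nuclei, and 3.69% passed it in favour of FOS- nuclei. All 3 also passed a CPM ratio of 4, which 7.90% of genes did in favour of FOS+ and 13.6% in favour of FOS- nuclei. By share difference *Nr4a2* ranked 8th, *Nr4a3* 11th and *Nr4a1* 476th, and by CPM ratio *Nr4a1* ranked 6th, *Nr4a2* 14th and *Nr4a3* 28th. The median gene was lower in FOS+ nuclei by 0.20 on the log2 CPM scale, and scaling by TMM or by size factors moved every ratio up by 0.24 or 0.20 on that scale. Expected shares after thinning each nucleus to 50000 reads, with no nucleus left out, were 69% against 6.44% for *Nr4a2*, 52.9% against 3.99% for *Nr4a3* and 31.1% against 2.45% for *Nr4a1*. Before thinning, at least 1 read was present in 77.5 and 24.4%, 67.5 and 14.6%, and 32.5 and 9.76%.

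The difference was present within most amplification conditions, each with 8 to 11 nuclei per group. For *Nr4a2* FOS+ nuclei had the higher share under all 4 conditions, by 50 to 70.0 percentage points, and for *Nr4a3* by 40 to 65.0 points. For *Nr4a1* it was higher in 3 of 4, by up to 45.5 points. At 1 uM TSO and an ERCC dilution of 1:200, *Nr4a1* was detected in 2 of 10 FOS+ nuclei and in 3 of 10 FOS- nuclei, a difference of -10.0 points, although the 2 FOS+ nuclei held 1061 reads and the 3 FOS- nuclei 1 read each. CPM ratios within a condition were above 1 for all 3 genes in all 4 conditions and ran from 36.4 (a lower bound against 3 reads) to 794.

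**Figure D2:**
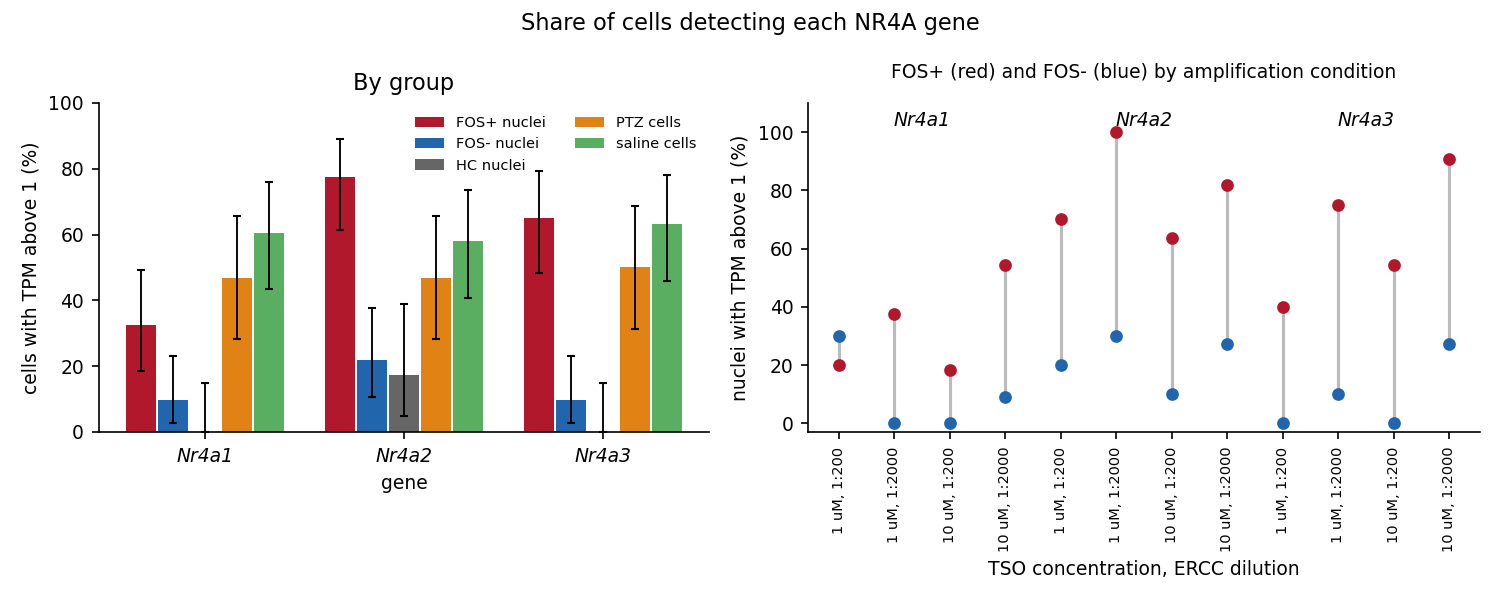
Left, bars give the percentage of cells or nuclei with a TPM above 1 in each group, with 95% exact binomial intervals. Right, points give that percentage in FOS+ and FOS- nuclei within each amplification condition, where FOS+ lies higher in 11 of the 12 pairs and *Nr4a1* at 1 uM and 1:200 is the exception.

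The 3 genes were often detected in the same FOS+ nuclei, and *Nr4a1* was found only in those that held the other two. At least 1 NR4A gene was detected in 36 of 40 FOS+ nuclei (90%, 76.3 to 97.2%), 14 of 41 FOS- nuclei (34.1%, 20.1 to 50.6%) and 4 of 23 HC nuclei (17.4%, 4.95 to 38.8%). Among FOS+ nuclei, 13 detected all 3, 8 detected *Nr4a2* and *Nr4a3*, 10 *Nr4a2* alone, 5 *Nr4a3* alone and 4 none. Each of the 13 nuclei with *Nr4a1* also held *Nr4a2* and *Nr4a3*, and no FOS- nucleus held all 3. In 1 of the 13 this rested on 2 *Nr4a2* reads (1.98 TPM) and 1 *Nr4a3* read (1.80 TPM), beside 35 *Nr4a1* reads. The nesting was not complete at higher limits. At a TPM above 5, 13 FOS+ nuclei detected *Nr4a1* and 12 detected all 3. With an expected count of at least 5 these were 12 and 11.

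Median levels were also higher where all 3 were present, with overlapping ranges. *Nr4a2* had a median of 209 TPM (1.98 to 2700) in the 13 nuclei with all 3 genes and 45.7 TPM (1.06 to 445) in the 18 other nuclei that detected it. *Nr4a3* had a median of 106 TPM (1.80 to 1282) and, in its 13 other nuclei, 39.9 TPM (1.24 to 426). *Arc* was detected in all 13 nuclei with 3 NR4A genes (245 to 2053 TPM), *Fos* in 10 and *Egr1*, a zinc finger IEG, in 9. Among the 23 nuclei with 1 or 2 NR4A genes, *Arc* was detected in 17, *Fos* in 2 and *Egr1* in 3. Of the 36 nuclei with any NR4A gene, 24 had no detected *Fos* RNA, and none of the 4 nuclei without an NR4A gene had it. The median total count was 330702 in the 13 nuclei, 265559 in the 23 and 134815 in the 4, and the part of depth in this pattern was not tested.

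**Figure D3:**
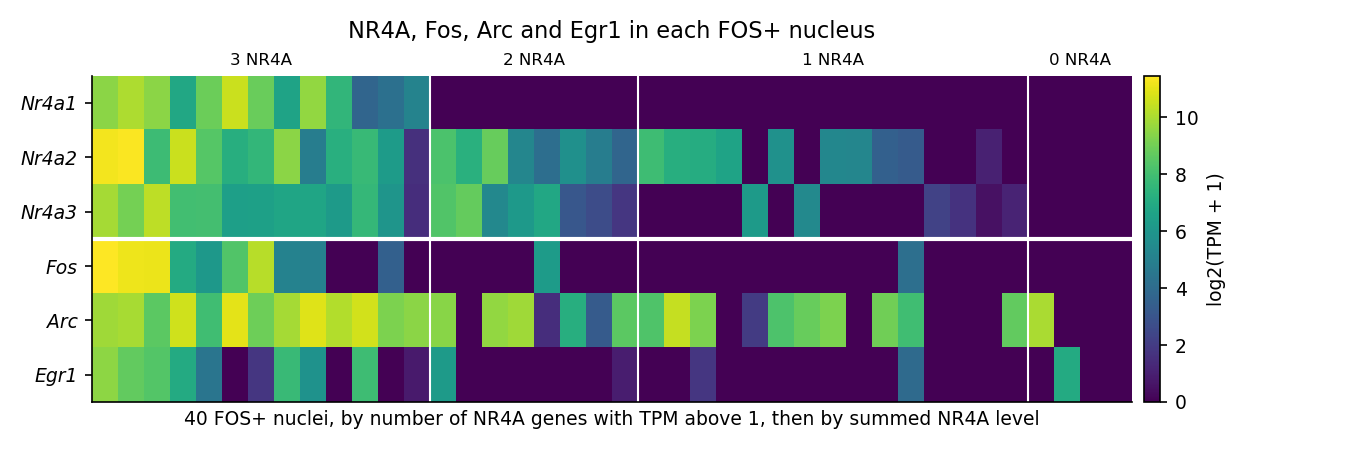
Columns are the 40 FOS+ nuclei, ordered by how many NR4A genes had a TPM above 1, and rows are genes, coloured by log2(TPM + 1). At this limit the 13 nuclei with *Nr4a1* also hold *Nr4a2*, *Nr4a3* and *Arc*, and *Fos* is detected in 10 of them.

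Little NR4A RNA was detected in HC nuclei. Their median number of genes detected was 3213, beside 6325.5 in FOS+ and 6020 in FOS- nuclei, and its part in this was not tested. No read of *Nr4a1* or *Nr4a3* was found in the 23 nuclei. A result of 0 of 23 allows a share of up to 13% if taken as 3 of 23, and of up to 14.8% by the exact binomial interval. *Nr4a2* was detected in 4 nuclei (17.4%, 4.95 to 38.8%), with TPM values of 3.26, 3.79, 4.08 and 79 and 21 reads in all. The nucleus at 79 TPM held 18 of these reads (85.7%) and the others 1 each, so that 1 nucleus stood apart. In the FOS- nuclei of the NE mouse the highest number of reads in any nucleus was 1 for *Nr4a1*, 6 for *Nr4a2* and 12 for *Nr4a3*.

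In whole cells the NR4A genes were detected often after either treatment, and none of them had a higher share of cells or a higher CPM after PTZ, the comparison meant to show the response to seizure. The study reported that, in its hands, protease dissociation of whole cells brought on IEG expression whatever the animal had experienced. The part of dissociation in the NR4A values was not tested. *Nr4a1* was detected in 14 of 30 PTZ-treated cells (46.7%, 28.3 to 65.7%) and 23 of 38 saline-treated cells (60.5%, 43.4 to 76.0%). *Nr4a2* was detected in 14 PTZ-treated (46.7%, 28.3 to 65.7%) and 22 saline-treated cells (57.9%, 40.8 to 73.7%), and *Nr4a3* in 15 (50%, 31.3 to 68.7%) and 24 (63.2%, 46 to 78.2%). All 3 pairs of intervals, which cover counting error only, overlapped.

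The TPM of *Nr4a1* had a lowest, median and highest value of 0, 0.850 and 3118 in PTZ-treated cells and 0, 107 and 3340 in saline-treated cells. For *Nr4a2* these values were 0, 0.395 and 269 after PTZ and 0, 40.2 and 823 after saline. For *Nr4a3* they were 0, 0.955 and 442 after PTZ and 0, 45 and 683 after saline. The groups overlapped from 0 up to the highest PTZ-treated cell for each gene, and the saline-treated cells above it numbered 1 for *Nr4a1*, 9 for *Nr4a2* and 2 for *Nr4a3*. Among detecting cells alone, median TPM was 383 and 1102 for *Nr4a1*, 124 and 113 for *Nr4a2* and 80.2 and 129 for *Nr4a3* in PTZ-treated and saline-treated cells.

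Summed reads gave CPM values of 697 after PTZ and 735 after saline for *Nr4a1* (ratio 0.948), 133 and 175 for *Nr4a2* (0.760) and 50.1 and 74.9 for *Nr4a3* (0.668). Ratios of the mean TPM per cell, which weights cells equally, were 0.524, 0.404 and 0.480, and 1 PTZ-treated cell held 24.9% of the *Nr4a1* reads of its group. None of the 3 passed a share difference of 20 points, which 3.12% of the 14492 genes did in favour of PTZ and 4.35% in favour of saline. Nor did any pass a CPM ratio of 4, which 5.35% of genes did in favour of PTZ and 4.46% in favour of saline. After thinning to 50000 reads the expected shares were 47.2 and 53.8% for *Nr4a1*, 42.8 and 52.8% for *Nr4a2* and 38.7 and 54.6% for *Nr4a3*, from 56.7 and 68.4%, 50 and 60.5%, and 50 and 63.2% with at least 1 read before thinning.

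The 3 genes were again found together in whole cells. All 3 were detected in 18 of 38 saline-treated cells (47.4%) and 9 of 30 PTZ-treated cells (30%), and none in 9 and 8. *Fos* was detected in all of the 18 and 9 cells with 3 NR4A genes, at medians of 5887 and 3600 TPM. In the cells with no NR4A gene, *Fos* was detected in 4 of 9 saline-treated and 5 of 8 PTZ-treated cells, at 1.32 to 2.04 TPM and 1.86 to 12.6 TPM. At a TPM above 1 some whole cells held *Nr4a1* alone (2 after saline and 3 after PTZ), which no FOS+ nucleus did at that limit.

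Which NR4A gene was highest within a cell, on the TPM scale, was described only for cells with all 3. *Nr4a1* was the highest in 17 of 18 saline-treated and 7 of 9 PTZ-treated cells, with medians of 1168, 269 and 236 TPM for *Nr4a1*, *Nr4a2* and *Nr4a3* after saline and 783, 128 and 153 after PTZ. In the 13 FOS+ nuclei *Nr4a1* was highest in 6, *Nr4a2* in 6 and *Nr4a3* in 1, with medians of 463, 209 and 106 TPM. Over all 40 FOS+ nuclei the mean TPM was 263 for *Nr4a2*, 154 for *Nr4a1* and 128 for *Nr4a3*, each with a range wider than these differences. The shares of the 3 genes come from the same 40 nuclei and are paired. At a TPM above 1, 18 of them detected *Nr4a2* without *Nr4a1* and 0 the reverse. *Nr4a2* without *Nr4a3* was detected in 10, and *Nr4a3* without *Nr4a2* in 5.

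**Figure D4:**
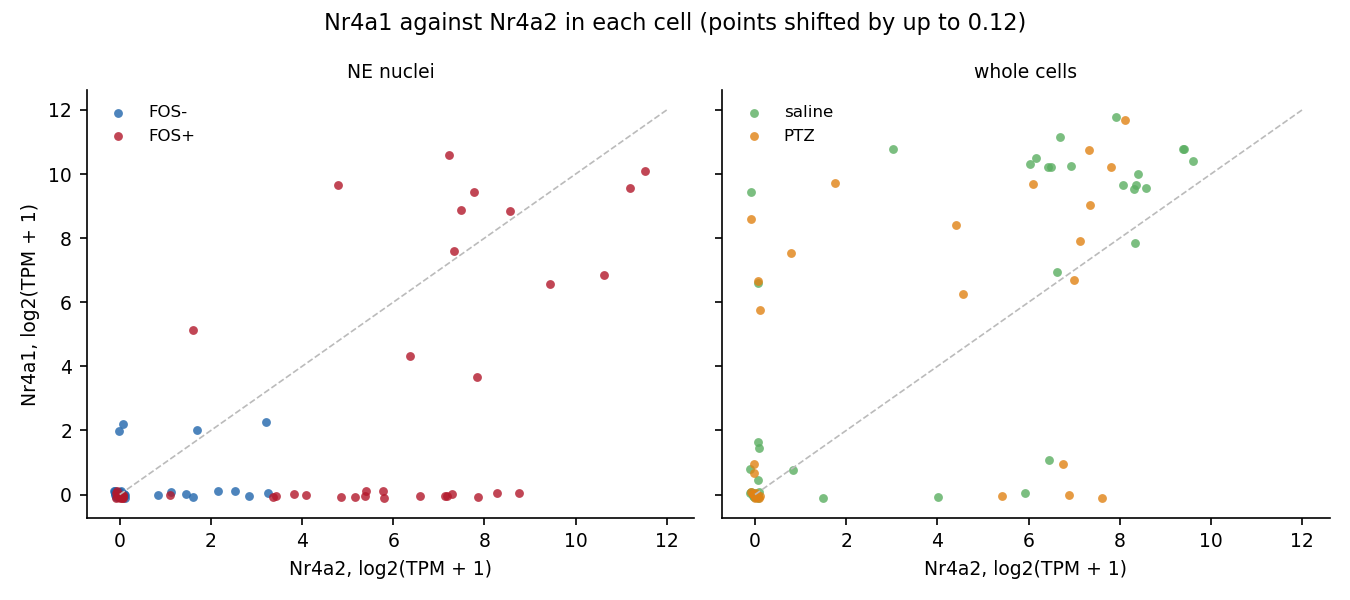
Points are nuclei (left) or whole cells (right), placed by log2(TPM + 1) of *Nr4a2* and *Nr4a1*, and the dashed line marks equal levels. In FOS+ nuclei the points with *Nr4a2* but no *Nr4a1* lie along the bottom (18 nuclei), and in whole cells with all 3 genes most points lie above the line (17 of 18 after saline and 7 of 9 after PTZ have *Nr4a1* highest).

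The genes whose level ran most like that of each NR4A gene were named by Spearman's rank correlation of log2(TPM + 1) across cells, as a description. The FOS+ nuclei share a mouse but span 4 amplification conditions and total counts of 80096 to 1035170, and the whole cells join both treatments. Of the 40 FOS+ nuclei, 27 were at 0 for *Nr4a1*, 9 for *Nr4a2*, 13 for *Nr4a3* and 28 for *Fos*. With so many ties at 0, these correlations reflect shared detection as well as level. Over the 40 FOS+ nuclei and 9215 genes, *Nr4a1* ran most like *Fos* (0.79), followed by *Smad7*, an inhibitor of TGF-beta signalling, *Hspa4*, *Ndel1* (each 0.68) and *Nr4a3* (0.66). *Nr4a2* ran most like *Fosb* (0.65), *Bdnf*, which encodes a neurotrophin (0.65), *1810030O07Rik* (0.60), *Egr4* (0.60) and *Homer1* (0.59). *Nr4a3* ran most like *Nr4a1* (0.66), *Fos* (0.63), *Pak6* (0.62), *Homer1* (0.62) and *Btg2*, an antiproliferative IEG (0.60). The rank correlation with the total count of a nucleus was 0.27 for *Nr4a1*, 0.31 for *Nr4a2* and 0.27 for *Nr4a3*, and with its number of genes 0.08, 0.07 and 0.04.

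In the 68 whole cells of both treatments, over 9477 genes, *Nr4a1* ran most like *Fos* (0.87), *Fosb* (0.84), *Egr1* (0.80), *Tiparp* (0.80) and *Btg2* (0.78). *Nr4a2* ran most like *Nr4a1* (0.69), *Egr4* (0.66), *1700016P03Rik* (0.66), *Plk2*, an activity-regulated kinase (0.65), and *Nr4a3* (0.65). *Nr4a3* ran most like *Fosb* (0.78), *Npas4*, a neuronal activity-dependent transcription factor (0.78), *Nr4a1* (0.78), *Fos* (0.75) and *Junb* (0.75). *Fos* stood among the 5 nearest of *Nr4a1* and *Nr4a3* in both nuclei and whole cells and ranked 38th and 6th for *Nr4a2*. The rank correlation was 0.13, 0.11 and 0.05 with the total count and 0.31, 0.35 and 0.27 with the number of genes detected, for *Nr4a1*, *Nr4a2* and *Nr4a3*.

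Genes related to the NR4A family were described beside it by the same 20-point and 4-fold limits. Of all genes in NE nuclei, 4.30% passed the share limit upward and 3.69% downward, and 7.90% and 13.6% the CPM ratio. Of the 20 other early response genes, 18 had enough reads in NE nuclei, and 12 of them were higher in FOS+ nuclei by the share and 16 by the CPM ratio, with none lower. The largest share differences were for *Arc* (31 of 40 against 1 of 41 nuclei, 75.1 points), *Fosl2* (27 against 5, 55.3 points) and *Fosb* (19 against 2, 42.6 points), the last 2 being partners of JUN in AP-1. The median share difference was 25.5 points for this list, 55.2 for the 3 NR4A genes and -0.793 over all genes. Genes of this list are known to be induced along with *Fos*, whose protein was used in the sort.

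Of 36 other nuclear receptors listed, 25 had enough reads. Their median share difference was -0.488 points, beside -0.793 over all genes, and their median log2 CPM ratio was 0.60, beside -0.20. By the share 1 was higher and 1 lower, the thyroid hormone receptors *Thrb* (11 of 40 FOS+ and 3 of 41 FOS- nuclei, 20.2 points) and *Thra* (20 and 31, -25.6 points). By CPM ratio 5 were higher (*Nr2f2*, *Nr2f6*, *Thrb*, *Ppard* and *Nr6a1*) and 5 lower (*Nr1d1*, *Rorb*, *Esrra*, *Nr2e1* and *Nr5a2*), limits that 7.90% and 13.6% of all genes passed. The retinoid X receptors, which form dimers with NR4A1 and NR4A2, passed neither limit in any of 3 genes, with a median share difference of 0.183 points.

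Among 10 upstream activators with enough reads, the factors and coactivators that drive NR4A transcription, none passed the share limit in NE nuclei. The counts in this paragraph stand beside 4.30% of all genes upward and 3.69% downward by share, and 7.90% and 13.6% by CPM ratio. By CPM ratio *Crem*, itself an inducible CREB family gene, was higher in FOS+ nuclei (17.2, counting interval 12.7 to 23.9) and *Atf1* was lower (0.211, 0.164 to 0.270). The share of *Crem* went the same way as its ratio (7.80 points). That of *Atf1* went the other way, with 9 FOS+ and 8 FOS- nuclei (2.99 points). Of 7 corepressor subunits, *Kdm1a*, a histone demethylase (17 against 7 nuclei, 25.4 points), and *Rcor1*, its CoREST partner (19 against 11, 20.7 points), were higher by share. *Hdac2* was lower by CPM ratio (0.190, 0.172 to 0.210), with detection in 10 FOS+ and 12 FOS- nuclei (-4.27 points). Of the 6 genes that need *Nr4a2* in dopamine neurons, 3 had enough reads and none passed the share limit. The vesicular transporter gene *Slc18a2* was higher by CPM ratio (4.27, 3.54 to 5.19) and *Ddc*, which encodes a dopamine-synthesizing enzyme, lower (0.159, 0.124 to 0.202). The share of *Slc18a2* went the same way as its ratio (12.9 points). That of *Ddc* went the other way, with 14 FOS+ and 11 FOS- nuclei (8.17 points).

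The same lists were described in whole cells, where 3.12% and 4.35% of all genes passed the share limit upward and downward and 5.35% and 4.46% the CPM ratio. Of 20 early response genes, *Dusp1*, a phosphatase of MAP kinases, was detected more often after PTZ (21.8 points), and *Homer1* (-26.0 points) and *Egr4* (-25.3 points) less often, while *Fosl2* was lower by CPM ratio (0.225, 0.201 to 0.251). The median share difference of this list was -3.25 points, beside -13.2 for the NR4A genes and -0.702 over all genes. Among 22 other nuclear receptors, *Nr2f1* was detected more often after PTZ (27.7 points) and *Nr3c1*, the glucocorticoid receptor gene, less often (-21.8 points), and 3 were higher and 3 lower by CPM ratio. *Rxrb* (23.0 points), 1 of 2 retinoid X receptors, and *Crtc3*, a CREB coactivator (37.2 points) and 1 of 10 upstream activators, were detected more often after PTZ. None of 7 corepressor subunits and 1 dopamine neuron target passed either limit.

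**Figure D5:**
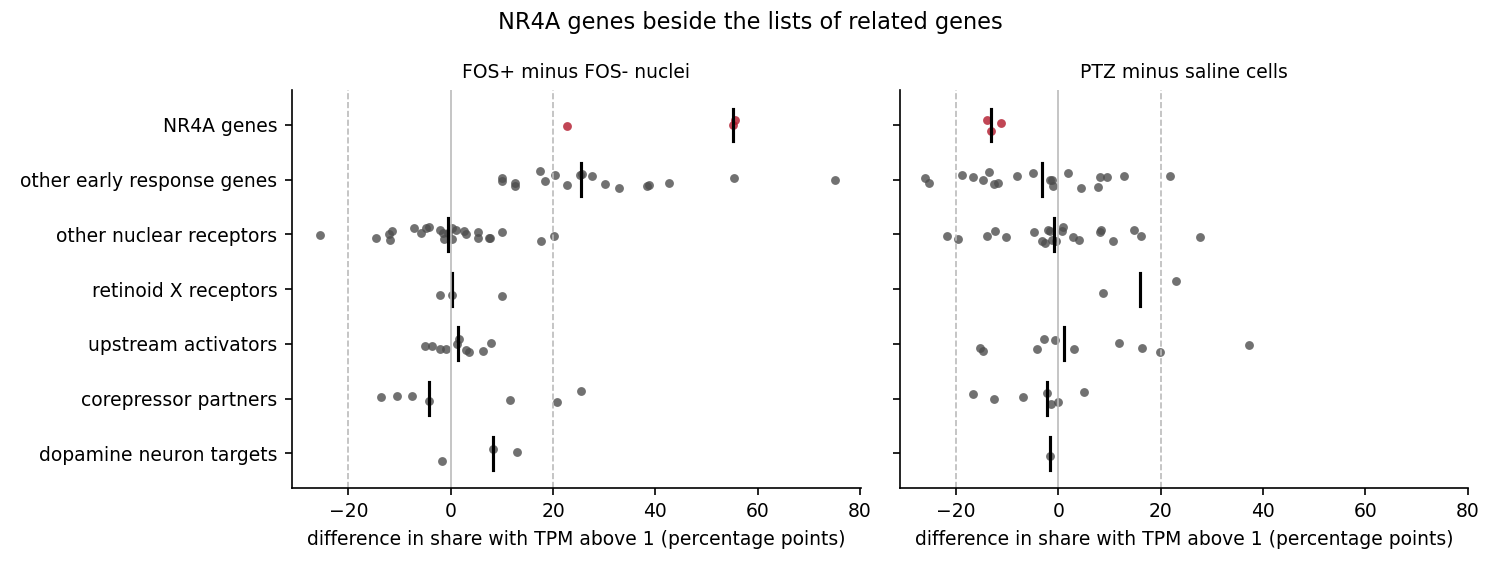
Each point is a gene with enough reads, placed by the difference in the share of cells with a TPM above 1, with black bars at list medians and dashed lines at 20 percentage points. In NE nuclei the 3 NR4A genes (22.7 to 55.5 points) lie with the other early response genes to the right, and in whole cells all 3 lie between -13.9 and -11.2 points.

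Markers of other cell types were present in part of the NE nuclei. Summed over 7 oligodendrocyte genes the TPM ran from 0 to 964 in FOS+ and from 0 to 715 in FOS- nuclei, with *Mag* detected more often in FOS+ nuclei (23 against 14, 23.4 points). The 6 astrocyte genes reached 2196 and 2437 TPM, with *Slc1a2* detected less often in FOS+ nuclei (11 against 22, -26.2 points) but at a CPM ratio of 1.25. *Slc1a3* was detected in 31 against 25 nuclei (16.5 points), and *Gfap* in 3 against 1, with a CPM ratio of 134. The highest summed TPM in FOS+ and FOS- nuclei was, for the 5 microglia genes, 4304 and 51.8, for the 6 interneuron genes 1360 and 5822, for the 4 pyramidal cell genes 159 and 93.1 and for the 3 endothelial genes 110 and 13.8. At 0 in every kept FOS+ nucleus were 2 oligodendrocyte, 1 microglia, 2 interneuron, 1 pyramidal cell and 1 endothelial gene, among them *Mog*, *C1qa*, *Slc32a1*, *Spink8* and *Cldn5*. Of 8 granule cell markers, *C1ql3* (-20.2 points) and *Stxbp6* (-20.7 points) were detected less often in FOS+ nuclei. In whole cells the highest summed astrocyte level was 12519 TPM after PTZ and 234 after saline. There the astrocyte gene *Aldoc* (10 of 30 against 3 of 38 cells, 25.4 points, CPM ratio 42.9) was detected more often after PTZ. By share, *Slc1a2* (21 against 31 cells, -11.6 points) and *Slc1a3* (6 against 8 cells, -1.05 points) went the other way, at CPM ratios of 3.04 and 24.8. The pyramidal cell gene *Fibcd1* (12 against 5 cells, 26.8 points) was detected more often after PTZ, and the granule cell marker *Stxbp6* less often (22 against 36 cells, -21.4 points). The part of these cells in the NR4A values was not tested.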

How the data were processed

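Expression was measured in 201 single cells or nuclei. The authors aligned reads with RSEM and Bowtie 1.0.0 to GRCm38 (mm10) and deposited, for each of 3 sets, a table of expected counts without normalization and a table of TPM scaled within each cell. NE nuclei were read as 50 base single-end and the others as 100 base paired-end libraries. Without molecular identifiers, reads are not independent molecules, and intervals cover counting error only.

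Cells were grouped by their labels and kept with a total expected count over 50000 and a number of detected genes no more than 2 SD below the table's mean, which stands in for the study's limit on aligned reads. All 23 HC nuclei were kept. Total counts of kept cells ran from 67212 to 5129240 in whole cells, from 63775 to 1060516 in NE nuclei and from 107647 to 278779 in HC nuclei, so that 3 counts are 5.85e-05 to 0.00470% of a total. Expected counts were rounded and summed per group. Shares have exact Clopper-Pearson intervals and ratios of summed CPM exact conditional intervals. Ratios against 0 counts used 3 counts. Genes were ranked and called, without a test, if at least 5 kept cells had a count. The study ran edgeR over nuclei as replicates, which was not done here because the nuclei of a group share 1 mouse or pool. Scaling alternatives used TMM (edgeR 4.0.16) and size factors (DESeq2 1.42.0). The calculations used Python 3.11.15 with scipy 1.17.1 and were tested on simulated data. No columns were identical.

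Named genes were the 3 NR4A genes, *Fos*, *Arc* and *Egr1*, up to 3 genes per related list and direction with the largest share difference past 20 points, and the 5 genes with the highest Spearman rank correlation per NR4A gene, over genes detected in at least 25% of the cells. Genes past the CPM ratio limit alone, and marker genes, were picked once their values were known. The members and lists were chosen with earlier results of these data known. Promoters and positions came from RefSeq (GRCm38.p6) and GENCODE, and all 3 genes matched. Motifs were searched on both strands. Alternatives varied detection, cells kept, scaling, filters and amplification condition, and the thinning to 50000 reads was added after seeing the data.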

Additional observations from a re-analysis of the deposited data

Results flagged for a closer look

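Signal was present in cells that the limits on depth left out of every comparison, with no common direction. Among the 5 PTZ-treated cells left out, *Nr4a1* had a TPM above 1 in 2 (40%) and *Nr4a2* in 1 (20%), against 0 of 9 saline-treated cells left out for both genes. *Nr4a3* went the other way, with 0 of the 5 and 2 of the 9 (22.2%). Among the 8 FOS+ nuclei left out, *Nr4a3* was detected in 1 (12.5%), against 0 of 7 FOS- nuclei left out, while *Nr4a1* and *Nr4a2* were each in 1 of 8 (12.5%) and 1 of 7 (14.3%). Each of these values rests on 1 or 2 reads summed over the group, at total counts of 195 to 5318 in the whole cells and 4000 to 46086 in the nuclei. Such reads gave a TPM of up to 5580, for *Nr4a3* in a saline-treated cell. The differences were not tested.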

How the results depend on the processing

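Of 125 alternative values for 21 results, 88 stayed within the spread or counting interval of the value reported or within 1.5 times a count, 36 moved and 1 reversed. The reversed value was the *Nr4a1* share difference at 1 uM TSO and 1:200 ERCC alone, -10.0 points, where the ratio was 227. Ratios there were 245 for *Nr4a2* and at least 74.0 for *Nr4a3*. At 10 uM and 1:200 they were at least 36.4, 137 and at least 104 for *Nr4a1*, *Nr4a2* and *Nr4a3*. At 1 uM and 1:2000 *Nr4a2* had 70.0 points and a ratio of 794, and at 10 uM and 1:2000 *Nr4a1* had 45.5 points and *Nr4a3* a ratio of 71.3. Mean TPM gave FOS+ ratios of 475, 275 and 109 for *Nr4a1*, *Nr4a2* and *Nr4a3*, and PTZ ratios of 0.524, 0.404 and 0.480. Differences of mean log2(TPM + 1) were 2.32, 4.56 and 3.51 for FOS+ and -1.26, -1.08 and -1.28 for PTZ. For *Nr4a1* after PTZ the ratio was 0.974 with TMM, 0.975 with size factors and 0.846 without the cell with the most reads per group, where *Nr4a2* had 0.807. With an expected count of at least 5, the *Nr4a2* difference was 70.1 points, its HC share 4.35%, and 5 FOS+ nuclei held exactly 2 genes. Without a filter on reads, 2290 genes were 4-fold higher and 3590 lower in FOS+ nuclei, and 1898 and 1484 after PTZ. With reads in at least 20 cells these were 449, 701, 107 and 103. The cause of these moves was not tested. No paired analysis was possible because no result comes from a test, and leaving out a replicate was not possible with 1 sample per group. Depth limits detection, since a FOS- value often rests on 1 read.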
